A study of Mus musculus with 10 samples.

Results

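In mouse embryonic stem cells, 396 places carried the Polycomb mark H3K27me3 with and without BAF250a, and had the promoter mark H3K4me3 called only in the library of cells without BAF250a. They were chosen from lists of enriched intervals (islands). Each is an autosomal H3K4me3 island of the knockout (KO) library that overlaps, by 1 bp or more, a H3K27me3 island in both genotypes and no H3K4me3 island in wild type (WT). They are 396 of 39509 autosomal KO H3K4me3 islands (1.00%, 95% exact binomial interval 0.906 to 1.11%), held 0.230% of the reads in those islands, and covered 736.6 kb in all.

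The cells were embryonic stem cells of strain 129/C57BL/6, grown on mouse embryonic fibroblast feeders with LIF. Cells labelled BAF250a Knockout received 1 µM 4-OH Tamoxifen for 36 hours, beginning 4 hours after passage. Cells labelled WT received ethanol on the same schedule, and both were harvested after 36 hours, so drug and genotype coincide in every sample. The labels name neither the targeted allele nor a recombinase, and they do not say whether feeder cells were removed before chromatin was made. Chromatin was fixed with 1% formaldehyde for 10 minutes, digested with micrococcal nuclease, briefly sonicated and immunoprecipitated with 1 antibody per mark. The title of the KO H3K27me3 sample writes the mark as H2K27me3, while its antibody field names H3K27me3. There was 1 library per genotype and mark, so each comparison below is between libraries, and none could be set against a spread between replicates. All intervals cover counting error or treat islands as independent draws, and none covers the spread between libraries.

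BAF250a, encoded by Arid1a, is a subunit of the BAF (SWI/SNF) complex, which moves nucleosomes with energy from ATP. H3K27me3 is laid down by Polycomb repressive complex 2 (PRC2) over silent developmental genes, and H3K4me3 by the Set1 and MLL family of methyltransferases at CpG-rich and active promoters. In embryonic stem cells many developmental promoters carry both marks, a state called bivalent. The sites described here had H3K27me3 alone in the WT lists and both marks in the KO lists.

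All 4 values of the rule are calls, so what follows describes the sites and tests nothing about how they were chosen. The autosomal islands held 9347232 reads in WT H3K4me3, 13205844 in KO H3K4me3, 1086422 in WT H3K27me3 and 777925 in KO H3K27me3. Library totals are not stated in the lists. A place without an island has no deposited count, and so "no WT H3K4me3" means no call, not a count of 0. The targeted gene and cell type markers were not checked, because that needs a gene annotation of mm9, the build of the files. For the same reason no gene is assigned to a site and no sequence is shown.

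The H3K4me3 islands at these sites were small and weak. Their KO reads ran from 21 to 499, with a median of 59 (quartiles 42 and 92.3). Widths ran from 400 to 9200 bp with a median of 1600 bp, and 256 of the 396 were narrower than 2 kb. The fold over input is ChIP reads over control reads, times the depth constant of the list. It ran from 1.23 to 6.32 with a median of 2.08 (quartiles 1.63 and 2.73). A fold of 2 or more was reached by 213 (53.8%, 48.7 to 58.8%), against 83.2% of all autosomal KO H3K4me3 islands, and a fold of 4 or more by 28. The authors' adjusted p-value was 1e-05 or less at 256 sites and above 0.01 at 30.

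Set beside the KO H3K4me3 islands that lacked both a WT H3K4me3 island and H3K27me3 (n = 15407), the sites were slightly wider and held more reads, but their fold was lower. The medians were 1600 against 1200 bp, 59 against 47 reads and 2.08-fold against 2.34-fold. A site had to touch the H3K27me3 lists of both genotypes and the other islands neither. That choice by itself favours wider islands, which hold more reads. ChIP density was nearly the same, with medians of 39.4 and 38.8 reads per kb. Control reads were denser at the sites, with medians of 14.4 and 12.5 per kb, and the part of input in the lower fold was not tested. KO-only H3K4me3 islands with H3K27me3 in WT only (n = 196) or in KO only (n = 130) were nearer to the sites in these 3 respects. Their medians were 57 and 54 reads, 2.19 and 2.27-fold, and 14.1 control reads per kb in both. Their ChIP density was higher, at 43.4 and 43.9 reads per kb.

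The contrast with bivalent islands that were already called in WT was much larger. The 1849 KO H3K4me3 islands with H3K27me3 in both genotypes and a WT H3K4me3 island had medians of 227 reads, 3600 bp, 65 reads per kb and 3.79-fold. Their lower quartile of fold, 2.74, lay at the upper quartile of the sites called only in KO, 2.73. Control density there had a median of 12.9 per kb. A contrast of this kind was also present away from H3K27me3, so it was not particular to these sites. The 20266 KO H3K4me3 islands with a WT H3K4me3 island and no H3K27me3 had medians of 281.5 reads and 5.22-fold. The KO-only islands without H3K27me3 had 47 reads and 2.34-fold.

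**Figure D1:**
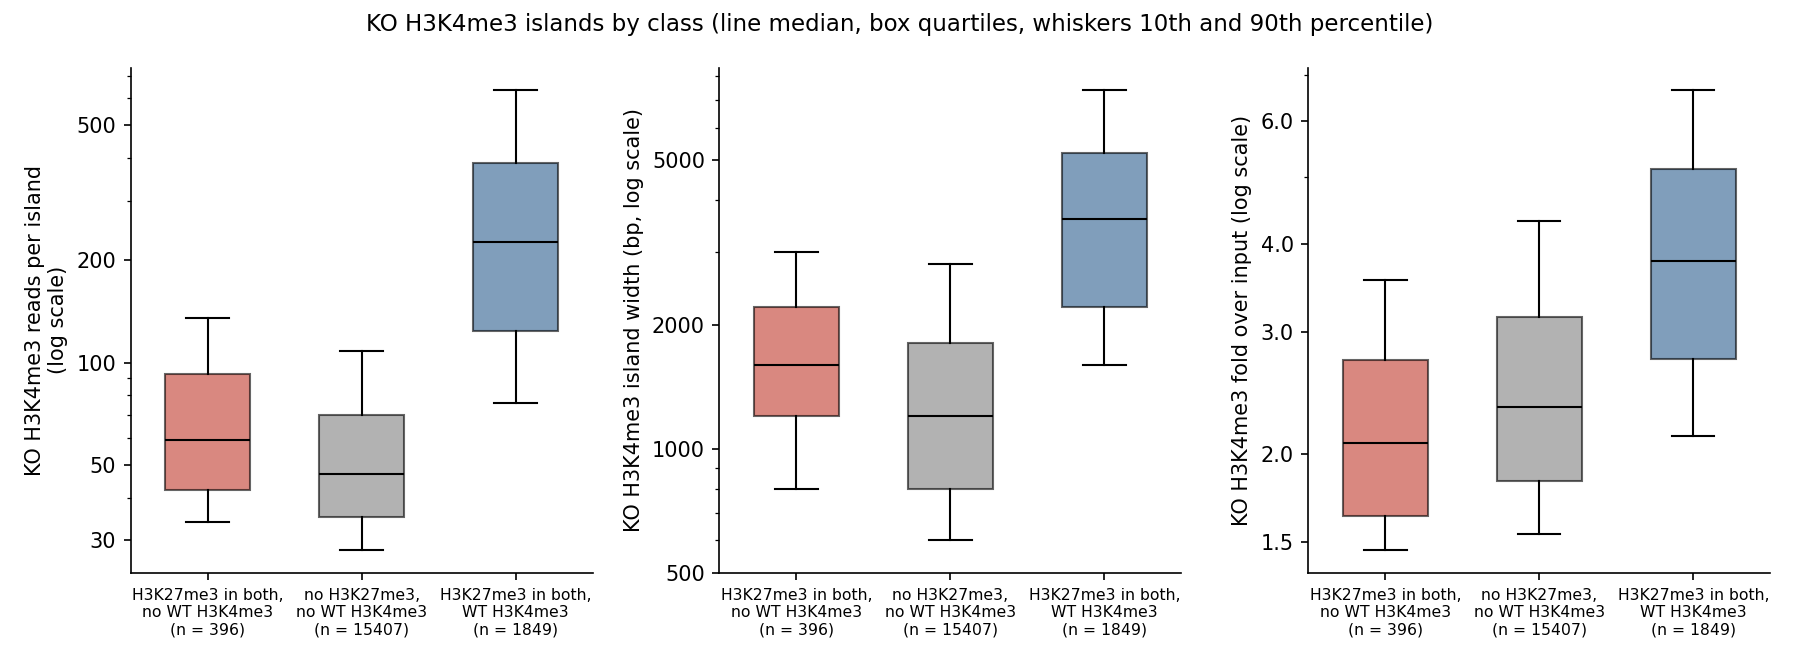
Reads per island, island width in bp and fold over input (log axes) of KO H3K4me3 islands in 3 classes; lines are medians, boxes quartiles and whiskers the 10th and 90th percentiles. Islands with H3K27me3 and no WT H3K4me3 (red) had a median of 59 reads, near the 47 of KO-only islands without H3K27me3 (grey) and far under the 227 of islands with H3K27me3 and a WT island (blue).

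Among KO H3K4me3 islands that carried H3K27me3 in both genotypes, 396 of 2245 had no WT island (17.6%, 16.1 to 19.3%). Among all autosomal KO H3K4me3 islands the share was 40.8%, and among those without H3K27me3 it was 43.2%. These shares restate the calls that define the sites, and the split by level below describes the lists. In the bottom quintile of KO islands by fold, 52.5% of those with H3K27me3 lacked a WT island (47.3 to 57.6%, n = 385), against 84.6% of those without (83.7 to 85.4%, n = 7298). In the next quintile the shares were 23.6% and 66.2%, and in the middle one 9.27% and 42.2%. In the top quintile by fold none of the 195 islands with H3K27me3 lacked a WT island, which allows a share of up to 1.87%, while 6.39% of the others did. By reads, the shares in the bottom quintile were 60.4% and 85.7%, and in the one below the top 2.55% and 11.1%. By width the order was not the same throughout. The shares were 59.3% and 74.6% in the narrowest quintile, but 2.22% (8 of 361, 0.961 to 4.32%) and 2.07% (150 of 7229, 1.76 to 2.43%) in the widest.

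**Figure D2:**
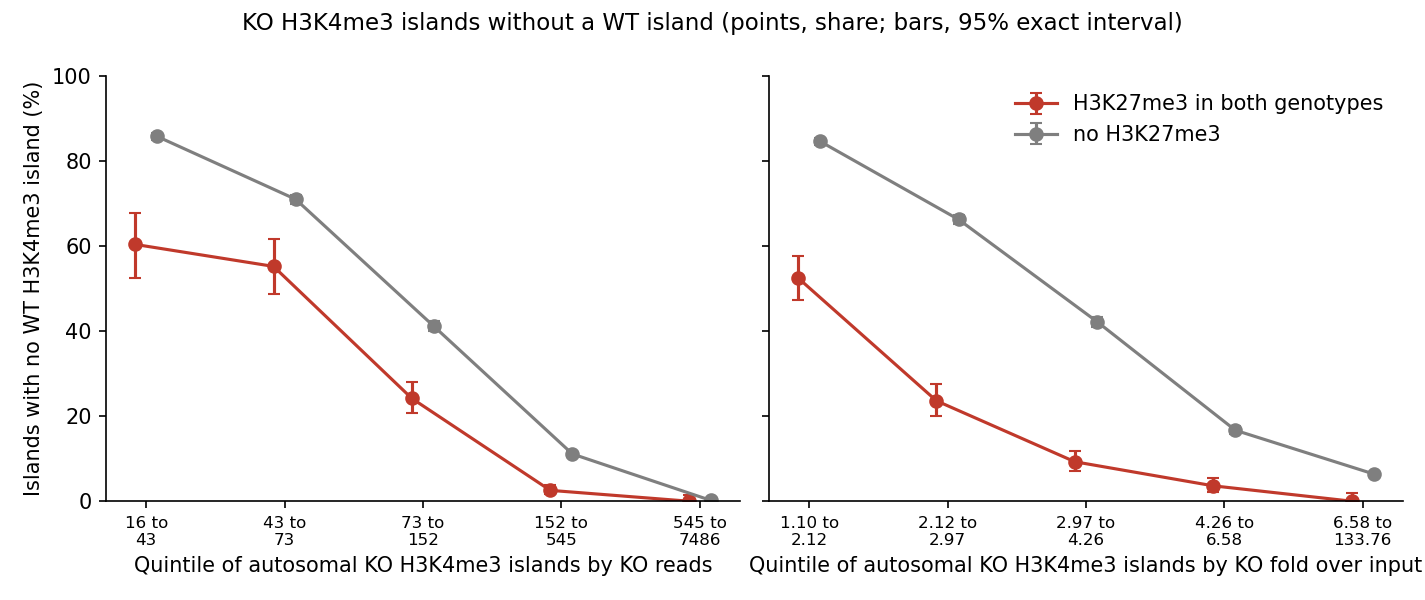
Share (%) of autosomal KO H3K4me3 islands with no WT H3K4me3 island, in quintiles of the list by KO reads (left) and by KO fold over input (right), each labelled with its range; bars are 95% exact binomial intervals. In every quintile of both panels, islands with H3K27me3 in both genotypes (red) lie under those without it (grey), with 0% against 0.190% in the top quintile by reads. In quintiles by width, not drawn, the widest had 2.22% and 2.07%.

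The sites lay low in the range of read densities at which WT islands were called. Over shared autosomal H3K4me3 regions, KO islands held 1.07 times as many reads per kb as WT islands. After division by that ratio, 105 of the 396 sites (26.5%) lay below 32.1 reads per kb, the 10th percentile of autosomal WT islands. Below the WT 25th percentile of 41.3 reads per kb lay 263 sites (66.4%). Both counts depend on that ratio, which divides the reads of each genotype by its own called length. Total reads in autosomal H3K4me3 islands were 13205844 in KO and 9347232 in WT. No other scaling was used. The WT density at the sites themselves is not in the lists, and how much of the difference in calls is a difference in signal was not tested.

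By position the sites fell into 2 groups of similar size. The H3K27me3 islands of WT and KO that overlap each other were merged into regions, and 395 of the 396 sites lay in such a shared region. In 205 sites (51.8%, 46.7 to 56.8%), the H3K27me3 region already held another H3K4me3 island in WT. These sites were in 137 regions with a median gap of 3.20 kb to the nearest WT H3K4me3 island, and 70 of the 205 lay between WT islands of the same region. The other 191 sites were in 175 regions with no H3K4me3 in WT, at a median gap of 55.4 kb (quartiles 24.2 and 96.4 kb). Over all sites the median gap was 10.0 kb. Of the 396, 47 lay within 1 kb of a WT H3K4me3 island, 150 within 5 kb and 111 farther than 50 kb.

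Sites in regions with no WT H3K4me3 had the stronger islands. Their median was 67 reads and 2.36-fold, against 55 reads and 1.90-fold for sites in regions with WT H3K4me3. The share at 2-fold or more was 64.9% (57.7 to 71.7%) and 43.4% (36.5 to 50.5%). Control density was similar in both, with medians of 14.2 and 15.0 reads per kb. The H3K27me3 regions themselves differed in size, with medians per site of 8.20 kb without WT H3K4me3 and 26.6 kb with it, and their part in the difference in fold was not tested.

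In 137 H3K27me3 regions, 205 sites lay beside H3K4me3 that was called in WT. These regions held 234 H3K4me3 islands in WT and 447 in KO, of which 215 overlapped a WT island. Those 215 had medians of 177 reads, 3200 bp and 2.80-fold. Of the 197 sites with such an island in the same region, 179 had a lower read density than the strongest of them (90.9%, 85.9 to 94.5%), at a median of 57.2% of its density. That share is a description only, since each site is set against the highest of its neighbours and was itself chosen for lacking a WT call. The sites held 21.7% of all KO H3K4me3 reads in these regions. Called H3K4me3 length there was 727.4 kb in WT and 1283 kb in KO. The KO length had 398.4 kb at the sites and 812.8 kb in the islands that overlap WT. Each of these regions was chosen for holding a KO-only island, and that choice favours a rise in island number and called length. The whole autosomal KO list was also the longer one, at 39509 islands against 27207. Its called length was 143.9 Mb, against 98.6 Mb for the WT list. How much of the rise is particular to these regions was not tested.

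**Figure D3:**
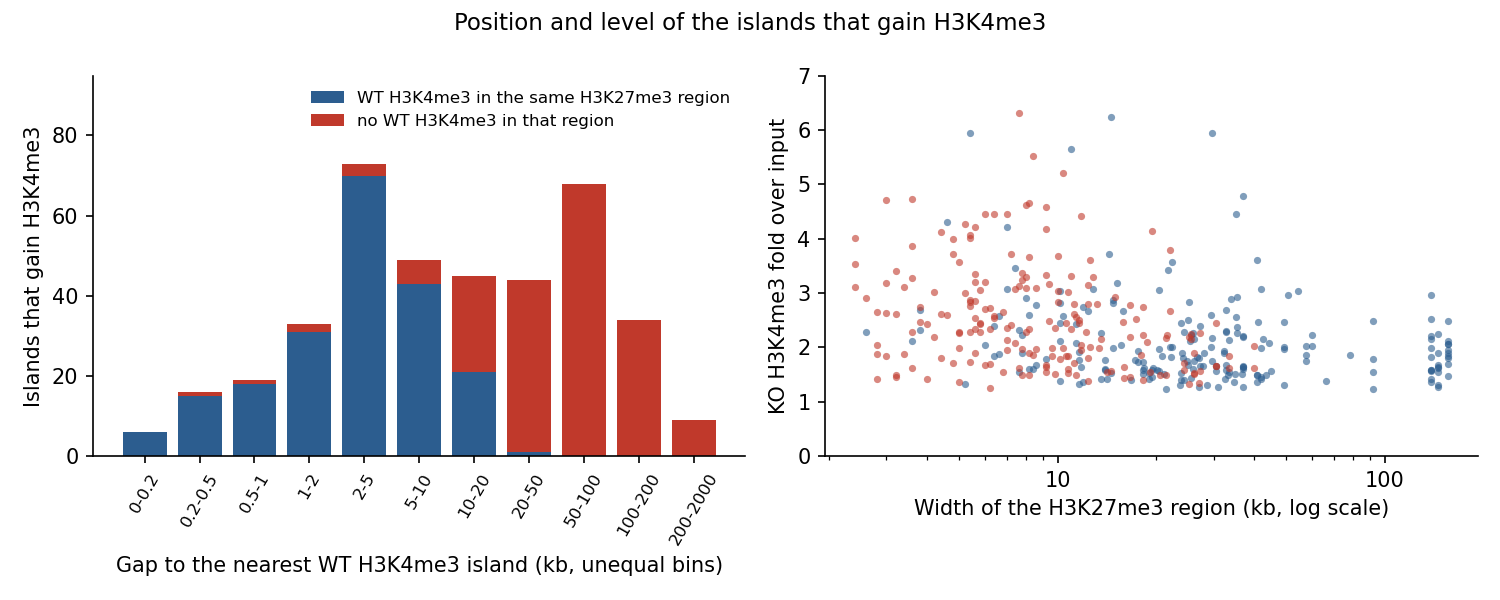
Left, number of sites by gap in kb to the nearest WT H3K4me3 island (unequal bins); right, KO H3K4me3 fold over input against the width of the H3K27me3 region (kb, log axis), with sites in regions with WT H3K4me3 in blue and without in red. The blue sites lie mostly within 10 kb of a WT island and in wide regions; the red sites lie mostly in narrower regions, and they make up most of the sites beyond 20 kb.

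Wide H3K27me3 regions were more likely to hold a site. Of shared regions without WT H3K4me3, 7.89% of those from 2 to 5 kb held one (36 of 456), 13.3% from 5 to 10 kb, 26.0% from 10 to 20 kb and 34.9% at 20 kb or more (15 of 43, 21.0 to 50.9%). Per length the rate was nearly even, between 20.04 and 22.2 sites per Mb of region in those 4 width classes. Regions with WT H3K4me3 differed in this respect. Their rate rose from 2.33 per Mb at 2 to 5 kb to 3.71, 9.24 and 19.5 per Mb in the wider classes, and the share with a site from 0.890% (5 of 562) to 36.4% (71 of 195). These rates divide by the whole region, including length under WT H3K4me3 islands, where the rule allows no site. No rate per free length was computed by width class. The lower rate in narrow regions with WT H3K4me3 is therefore in part set by the rule. No region under 2 kb, of 16 without and 13 with WT H3K4me3, held a site. Over all shared regions, 311 of 3216 held a site (9.67%).

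More sites than not lay wholly inside H3K27me3 islands of both genotypes. Of the 396, 300 were wholly inside a WT H3K27me3 island, 258 wholly inside a KO H3K27me3 island and 217 inside both (54.8%). The centre of 255 sites (64.4%) was at least 25% of the region's width away from either edge. Centres spread evenly over a region would give 50%, and the rule needs overlap with both H3K27me3 lists. Some centres lay outside the region. The site took a median of 10.9% of the region's width, and 19.6% where the region had no WT H3K4me3. At 78 sites less than 50% of the island lay in KO H3K27me3, and at 50 less than 50% lay in WT H3K27me3. In total the sites covered 529.6 kb of the 14.1 Mb of common H3K27me3 that WT H3K4me3 islands left free, or 3.75%.

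A few long domains held several sites each. Of 312 regions with a site, 42 held 2 or more, and 15 held 3 or more and together 72 of the 396 sites. The 3 regions with most sites lay on chromosomes 6, 15 and 11. A region on chromosome 2 followed with 5 sites, as many as one on chromosome 1. In mm9 the first 4 of these segments are known to hold the HoxA, HoxC, HoxB and HoxD clusters of homeobox genes, which set position along the body axis and are standard PRC2 targets in stem cells. That placement is background knowledge. A RefSeq gene table of another build (GRCm38.p6) also places the Hoxa, Hoxc, Hoxb and Hoxd genes on those 4 chromosomes, but no mm9 annotation was used.

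The chromosome 6 domain, 52091401 to 52230400 (HoxA), held 11 sites, the most of any region. H3K4me3 formed 7 islands with 1210 reads over 22.6 kb in WT and 19 islands with 3634 reads over 70.4 kb in KO. Those reads are unscaled, and over all autosomes the islands also held more reads in KO (13205844 against 9347232). Of the 19, 8 overlapped a WT island and 11 did not. The 11 sites held 45 to 262 reads each, at 28.9 to 58.6 reads per kb and 1.36 to 2.97-fold, while the 8 others reached 1.98 to 5.20-fold. Both ranges of fold are from the KO library. In the WT library, the 7 H3K4me3 islands of the domain had only 1.18 to 2.33-fold. The largest, 52178601 to 52185400, was 6.8 kb wide, lay 9 kb from the nearest WT H3K4me3 island and held 262 reads at 1.36-fold. The site with the highest fold, 52146401 to 52148200, held 52 reads against 13 control reads. Together the sites covered 20.6% of the domain.

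In the same domain H3K27me3 was 1 island with 9441 reads in WT and 6 islands with 3980 reads in KO. The WT fold was 3.05 and the KO fold 2.16, at 13.4 and 13.6 control reads per kb. The log2 KO over WT ratio was −0.50 by fold. By reads scaled to all shared autosomal regions it was −0.75. These are values of the whole domain, and H3K27me3 at the sites themselves is not in the lists.

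The chromosome 15 domain, 102752601 to 102908600 (HoxC), held 10 sites with 37 to 134 reads each, at 1.47 to 2.49-fold. It had 11 H3K4me3 islands in WT and 19 in KO, 9 of which overlapped a WT island, with KO folds of 1.34 to 4.26. The 11 WT islands had 1.26 to 3.12-fold in the WT library. H3K27me3 had 9754 reads at 3.10-fold in WT and 4618 at 2.41-fold in KO, with a log2 ratio of −0.58 by scaled reads. One site there, 102784801 to 102787200, lay 19.4 kb from any WT H3K4me3 island, and another, 102856201 to 102858800, abutted one.

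The chromosome 11 domain, 96103001 to 96248600 (HoxB), held 8 sites with 36 to 270 reads each, at 1.27 to 2.25-fold. A run of 3 sites separated by gaps of 400 bp, the first at 96159801 to 96167400 with 270 reads and the last ending at 96173200, lay between WT islands. H3K27me3 had 8936 reads at 2.85-fold in WT and 3942 at 2.20-fold in KO, with a log2 ratio of −0.68 by scaled reads. A separate region beside it, 96023801 to 96073200, held 4 more sites, with 1 H3K4me3 island in WT and 5 in KO, and H3K27me3 folds of 3.04 and 2.14.

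The chromosome 2 domain, 74506401 to 74543200 (HoxD), had the largest part under new calls among these 4. It was also the shortest of the 4, and adjoining H3K27me3 regions were counted apart. Its 5 sites covered 54.3% of 36.8 kb and held 735 of the 1203 KO H3K4me3 reads there. WT H3K4me3 had only 2 islands, 1 at either end, with 276 reads. The widest site, 74517601 to 74525800, held 264 reads against 120 control reads, at 1.63-fold. H3K27me3 had 2497 reads at 3.04-fold in WT and 1066 at 2.21-fold in KO, with a log2 ratio of −0.73 by scaled reads. The next region, 74543601 to 74601000, held 6 WT and 8 KO H3K4me3 islands and 3 sites, each within 600 bp of a WT island. Those 3 sites covered only 13.2% of that region. On the other side, the region 74494201 to 74506000 held 1 site.

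**Figure D4:**
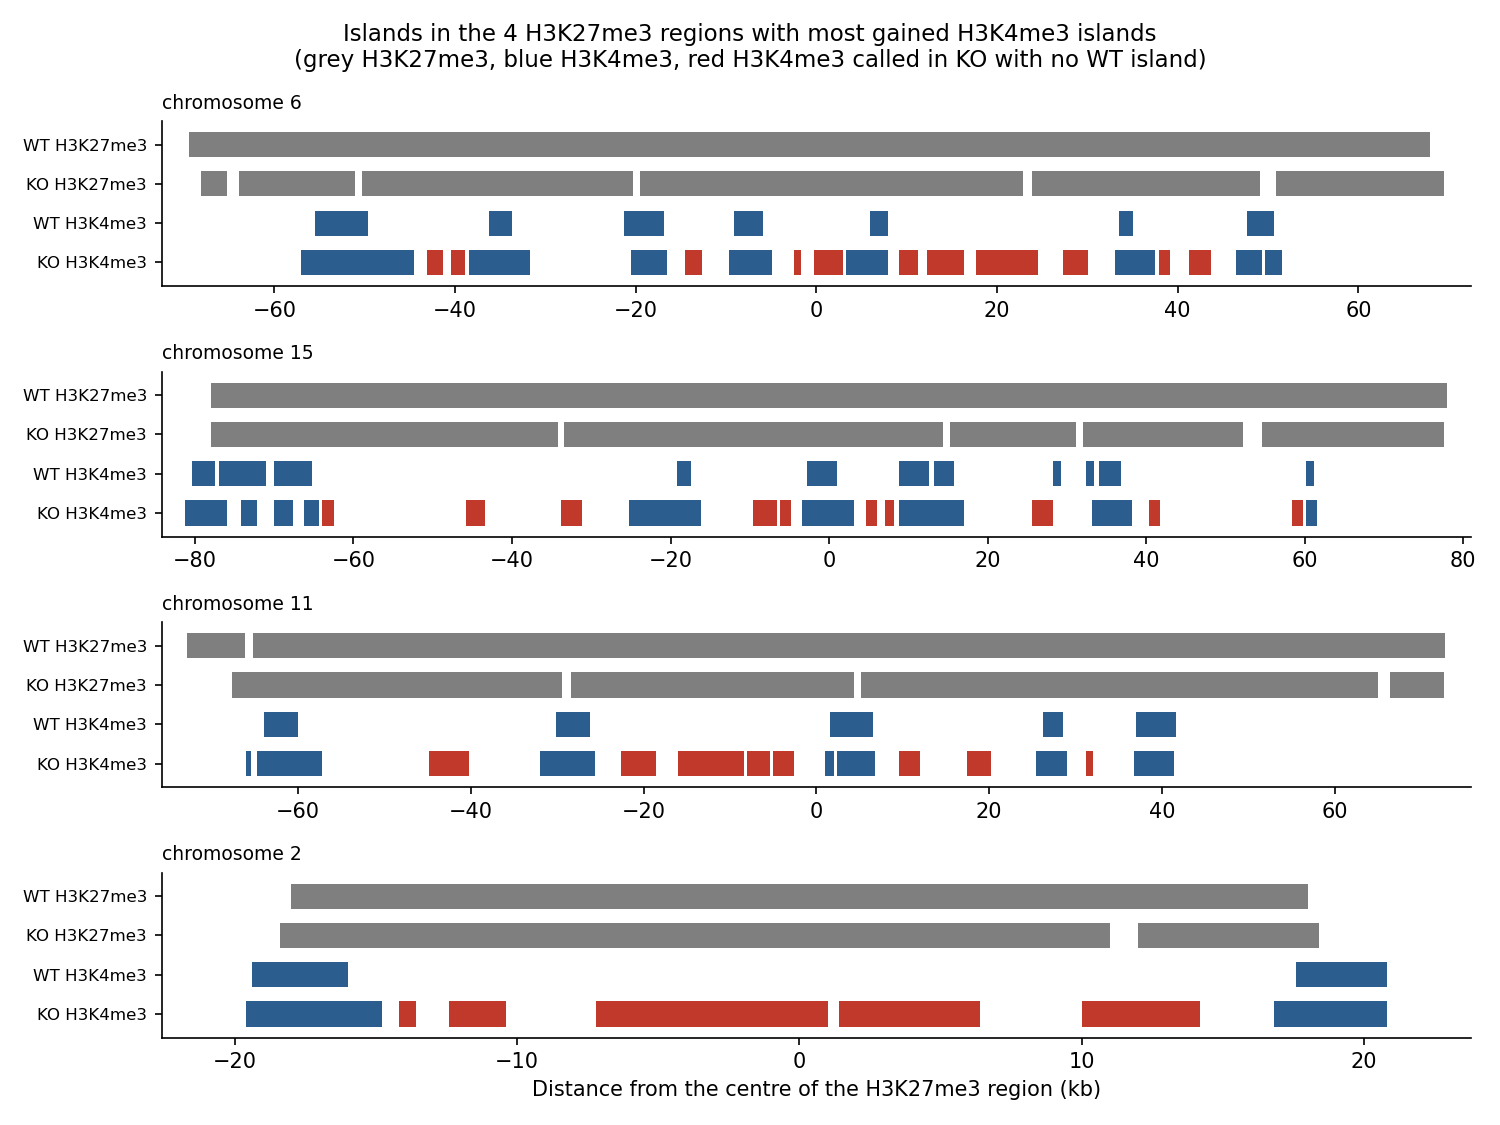
Called islands of the 4 libraries in 4 H3K27me3 regions with the most sites (the last ties with a chromosome 1 region not drawn), against distance from the region's centre in kb; grey bars are H3K27me3, blue H3K4me3 and red H3K4me3 called in KO with no WT island. The red islands (11, 10, 8 and 5 from top to bottom) fill spaces between WT H3K4me3 islands, over H3K27me3 that was called in both genotypes and broken into more pieces in KO.

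Regions with a site held 383 H3K27me3 islands in WT and 470 in KO, over 4684 and 4216 kb, against 3797 and 3824 over all shared regions. Nearly all of the rise lay in regions with WT H3K4me3, from 174 to 255 islands, while regions with a site and no WT H3K4me3 had 209 and 215. Regions without a site split as well: those with H3K4me3 in both genotypes and 500 or more WT H3K27me3 reads went from 265 to 347 islands. Between KO islands of 1 region there were 159 gaps that WT H3K27me3 covered, with a median of 1 kb. A site overlapped 51 of them, an H3K4me3 island that also had a WT island overlapped 52, and 56 had no KO H3K4me3. The reverse gaps, open in WT and covered in KO, numbered 72, and a site overlapped 17. Both counts come from regions chosen for holding a site, with no rate for other regions beside them. Whether sites favour such gaps was not tested.

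Outside the Hox domains, chromosome 1, 74826601 to 74859400, held 5 sites at 1.58 to 2.70-fold where WT had 1 H3K4me3 island. H3K27me3 there had 1330 reads at 1.74-fold in WT and 641 at 1.63-fold in KO. Chromosome 19, 44801001 to 44843000, held 4 sites at 1.43 to 3.08-fold, with H3K27me3 at 2.00-fold and 1.75-fold. Chromosome 8, 126061401 to 126153200, also held 4 sites, but H3K27me3 was barely over input there. WT had 3205 reads against 1736 control reads, and KO 481 against 404, 1.16-fold. Control density was 21.5 per kb in WT and 20 in KO, against H3K27me3 list medians of 5.8 and 8.67. The region held 24 H3K4me3 islands in KO and 4 in WT. Of the 24, 16 were not sites and had no WT island, so the 4 sites were a small part of the KO-only calls there. A ranking by region misses sites that cluster over separate regions. On chromosome 18, which held 23 sites in all, many regions between 37092201 and 37681200 held 1 or 2 sites each.

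The site with the most reads of all stood apart by its input. At chromosome 5, 26332201 to 26338600, 499 KO H3K4me3 reads were set against 274 control reads, 42.8 per kb, which left a fold of 1.35. It is 1 of 2 sites with a control density over 3 times the median of the list. H3K27me3 there had 690 reads at 1.59-fold in WT and 956 at 1.28-fold in KO. The site with the next most reads, on chromosome 8 at 126140201 to 126149400, was also the widest, at 9.2 kb with 372 reads and 1.55-fold. Only 15.2% of it lay in KO H3K27me3.

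Several of the sites with most reads had no WT H3K4me3 for a long distance, with 15.0 to 16.2 control reads per kb at 3 of them. At chromosome 5, 147996401 to 148003800, 285 reads were found over 7.4 kb at 1.86-fold, 101 kb from the nearest WT H3K4me3 island. The H3K27me3 region around it had 684 reads at 2.00-fold in WT and 315 at 1.59-fold in KO. On the same chromosome, 148114801 to 148119800 held 242 reads at 2.22-fold, 90.6 kb from WT H3K4me3. H3K27me3 there was 2.11-fold in WT and 2.16-fold in KO. At chromosome 6, 53767201 to 53772600, 281 reads at 2.58-fold lay 163.4 kb from WT H3K4me3, with H3K27me3 at 1.74-fold (195 reads) and 2.27-fold (84 reads).

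The other 2 of the 10 with most reads lay nearer to WT H3K4me3. Chromosome 2, 31490001 to 31498000, held 340 reads at 1.83-fold, 10.8 kb from WT H3K4me3, and 22.5% of it lay in KO H3K27me3. Chromosome 9, 58043801 to 58050200, held 264 reads at 1.58-fold, 600 bp from WT H3K4me3. At both, WT H3K27me3 covered the whole site.

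The highest folds came from small islands. With 50 or more reads, the first was chromosome 14, 40285601 to 40287400, with 67 reads against 9 control reads, 5.53-fold. Only 11.1% of that site lay in WT H3K27me3. Next were 2 sites on chromosome 8. The one at 59832401 to 59833600 had 58 reads and 4.79-fold, and the one at 119387201 to 119387800 had 51 and 4.74-fold. A second site on chromosome 14, 42315401 to 42317000, reached 4.65-fold with 119 reads. Last of the 5 was chromosome 12, 121184201 to 121185800, at 4.62-fold with 112 reads. All 5 rest on 8 to 19 control reads. Of the 5, only the one at 59832401 lay in a region with WT H3K4me3.

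At the edge of the rule, 6 sites abutted a WT island, with a gap of 0 bp, and held 37 to 141 reads at 1.62 to 2.90-fold. The 3 of them with most reads are named. One on chromosome 18 held 141 reads at 1.66-fold. The chromosome 15 site named above held 116 at 1.69-fold, and chromosome 4, 146549601 to 146551600, held 61 at 1.62-fold. Just outside it, 4 KO islands with H3K27me3 in both genotypes overlapped WT H3K4me3 by only 200 bp, and held 78 to 345 reads at 1.20 to 2.60-fold. The 3 of them with most reads held 345 reads at 1.53-fold, 126 reads at 2.60-fold and 87 reads at 1.20-fold. They lay at chromosome 4, 145163401 to 145170200, chromosome 3, 55585801 to 55588600, and chromosome 4, 146555401 to 146558600.

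H3K27me3 at the regions with a site had nearly the same fold over input in both libraries. The rule needed a H3K27me3 island in each genotype but not any level of it. Over the 311 shared regions that hold a site, median folds were 2.03 (WT) and 2.08 (KO). The median log2 KO over WT ratio was −0.03 (95% rank interval −0.07 to 0.02), against −0.16 (−0.18 to −0.14) over all 3216 shared autosomal regions. The fold was lower in KO in 166 of the 311 (53.4%), against 63.1% of all shared regions. The fold was lower in KO by 1.5 times or more in 29 of the 311, and in 762 of all 3216 shared regions (23.7%). It was higher by 1.5 times or more in 23 of the 311, and in 260 of the 3216 (8.08%).

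The reads behind the folds gave a different picture. Scaled to the reads in all shared autosomal regions, the median log2 KO over WT ratio was −0.24 (−0.32 to −0.15), against 0.10 over all. The KO value was the lower one in 198 of 311 regions with a site (63.7%), against 44.8% of all. Regions with H3K4me3 in both genotypes and no site lay between, at 58.2%, and regions with no H3K4me3 at 18.0%. Per kb of called length the median was −0.05 (−0.09 to −0.0014), and called length was shorter in KO in 175 regions and longer in 122. Control reads per kb differed as well. The median log2 KO over WT control density was 0.08 in regions with a site and 0.40 over all shared regions, and its part in the fold ratio was not tested.

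The KO over WT ratio of H3K27me3 was lower in regions with WT H3K4me3. Pooled over the 137 regions with a site and WT H3K4me3, WT had 2.32-fold and KO 2.07-fold, a ratio of 0.891 (0.876 to 0.906). Pooling gives most weight to the regions with most reads. Per region the median log2 fold ratio was −0.08 (rank interval −0.14 to −0.01), and the fold was lower in KO in 81 of the 137. KO had fewer scaled reads in 118 of these 137. Over the 174 regions with a site and no WT H3K4me3, the pooled folds were 2.06 and 2.09, a ratio of 1.02 (0.988 to 1.04), and KO had fewer scaled reads in 80. Their median log2 fold ratio was 0.01 (−0.04 to 0.05), and the fold was lower in KO in 85. The 2 sets differ in size, with median WT H3K27me3 reads of 793 and 157.5. No test of the difference between them was made, with 1 library per genotype.

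Grouped by read level, regions with a site lay nearer to other regions with H3K4me3 than to regions without it. With 500 or more WT H3K27me3 reads, the median log2 fold ratio was −0.11 (−0.18 to −0.06, n = 113) in regions with a site. It was −0.15 (−0.20 to −0.11, n = 179) in regions with H3K4me3 in both genotypes and no site. With 100 to 499 reads the values were 0.09 (0.02 to 0.17, n = 153) and −0.04 (−0.07 to −0.0044, n = 1111). Regions with no H3K4me3 in either genotype had −0.31 (−0.37 to −0.26, n = 356) at 100 to 499 reads, with a median log2 control density ratio of 0.74, against 0.11 for regions with a site. For scaled reads the order changed with read level. KO had fewer scaled reads in 92.9% of regions with a site and 86.0% of those with H3K4me3 in both and no site at 500 or more reads, but in 57.5% and 69.6% at 100 to 499 reads.

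**Figure D5:**
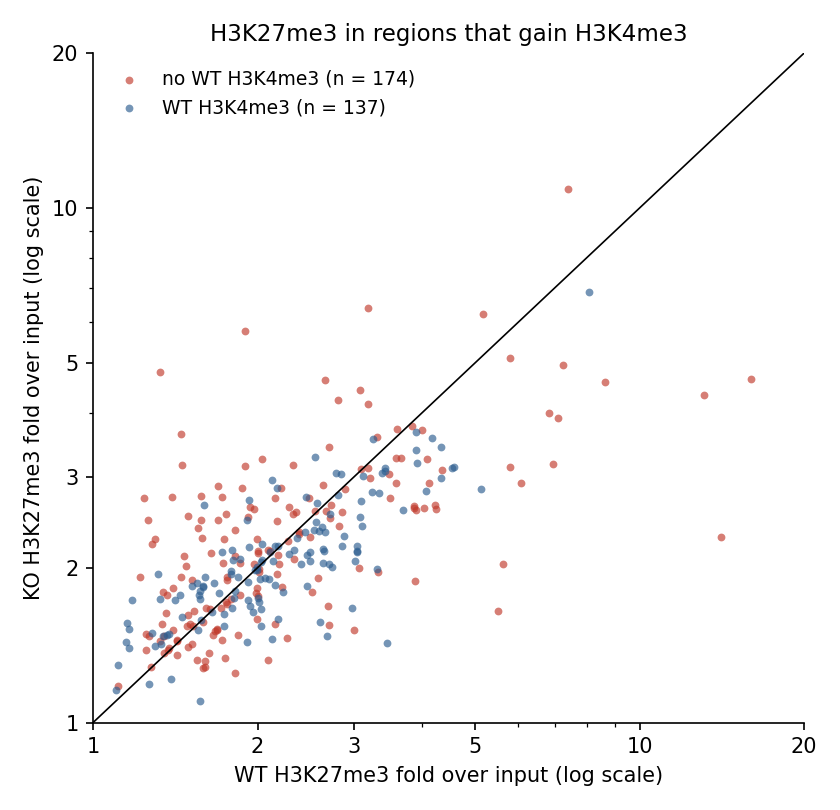
H3K27me3 fold over input in KO against WT (log axes) for the 311 shared regions that hold a site, with the diagonal marking equal folds; regions with WT H3K4me3 are blue and regions without are red. The points lie on both sides of the diagonal (166 below it), and past 1.5 times lie 23 red and 6 blue points on the lower side and 22 red and 1 blue on the higher.

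The extremes of the H3K27me3 ratio, among 219 regions with 100 or more reads in each genotype, rested on 5 to 97 control reads per region and genotype. The highest was around chromosome 12, 121184201 to 121185800, where H3K27me3 was 3.18-fold (WT) and 6.38-fold (KO) over 5.43 and 3.03 control reads per kb. Next came chromosome 16, 60604401 to 60606800, at 2.66 and 4.63-fold, and chromosome 6, 22237801 to 22240400, at 1.69 and 2.89-fold. The lowest was around chromosome 17, 29240801 to 29241800, at 16.0-fold in WT and 4.64-fold in KO, where control density was 0.926 and 5.97 reads per kb. Then came chromosome 4, 146191201 to 146192200 (3.88 and 1.88-fold), and chromosome 9, 67547001 to 67548200 (3.00 and 1.52-fold).

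The opposite call, H3K4me3 in WT but not in KO at places with H3K27me3 in both genotypes, was made at 205 of 2032 autosomal WT H3K4me3 islands (10.1%, 8.81 to 11.5%), against 5.29% of all autosomal WT H3K4me3 islands. These islands had a median of 40 reads and 2.75-fold, over 6.33 control reads per kb in WT. The KO list is the longer one, with 39509 autosomal islands against 27207, so the counts of 396 and 205 do not compare like with like.

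Sites were found on all 19 autosomes. Chromosome 2 held 47, the most, and chromosome 16 held 9, the fewest. As a share of KO H3K4me3 islands with H3K27me3 in both genotypes, they ran from 8.00% on chromosome 13 (3.90 to 14.2%) to 25.5% on chromosome 5 (18.6 to 33.6%). On the sex chromosomes, outside the rule, none of 8 such islands lacked a WT H3K4me3 island, which allows a share of up to 36.9%.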

How the data were processed

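Enriched intervals of 4 ChIP libraries (H3K4me3 and H3K27me3, WT and KO) were analysed; nuclease and input libraries were not used here. Per the submitters' processing notes, Bowtie (no version given) and SICER 1.1 were used with mm9. The authors' deposited lists are named for 200 bp windows, for gaps of 200 bp (H3K4me3) and 600 bp (H3K27me3) and for an FDR of 0.05. No read filter is named. ChIP and control read counts are deposited unscaled. The deposited ratio (fold over input) equals ChIP over control reads times 1 constant per list, with 0.25 for a control of 0. The constants were 0.562 (WT H3K4me3), 0.743 (KO H3K4me3), 0.596 (WT H3K27me3) and 0.974 (KO H3K27me3). The deposited p-value and its adjusted form are the authors'.

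Positions are 1-based. Region folds were recomputed from summed counts. Rank intervals are for medians, exact binomial (Clopper-Pearson) for shares, and normal on the log scale for pooled ratios; reads without molecular identifiers are not independent molecules. Named sites follow a rule: the 10 with most reads, the 5 with the highest fold at 50 or more reads, the 5 widest, the 3 nearest to a WT island with the 3 just outside (ties broken by reads), the 3 highest and lowest H3K27me3 ratios at 100 or more reads, and the 3 regions with most sites; other domains named were chosen after their values were seen. The sites and rules were chosen with earlier results of these data known. No p-value was computed. Overlaps were tested on simulated data and differed from bedtools 2.31.1 by 0 islands. Python 3.11.15, numpy 2.4.6, pandas 2.3.3, scipy 1.17.1 and matplotlib 3.10.9 were used.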

Additional observations from a re-analysis of the deposited data

How the results depend on the processing

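The number of sites, 396, came to 246 with no WT H3K4me3 island allowed within 5 kb, 256 with an FDR of 1e-05 in the KO H3K4me3 list alone, and 216 with that list shortened to the length of the WT list. All 3 settings can only remove sites. The other 6 settings gave 297 to 396, but a count near 396 did not mean the same places. Requiring 2-fold or more in all 4 lists left 311, of which 94 were among the 396. With an FDR of 1e-05 in all 4 lists there were 369, of which 197 were. Both settings also drop weak WT islands, which adds new places. When shared meant 50% of the smaller island, 281 of 297 were among the 396. The median H3K4me3 fold was 2.20 for sites over 5 kb from WT H3K4me3. The median log2 H3K27me3 fold ratio of −0.03 stayed within its interval under 5 settings, and was −0.12 when pooled over regions. The scaled read ratio of −0.24 was −0.32 with 100 or more reads and −0.051 as reads per kb of called length. The share of sites with other WT H3K4me3 in their region was 39.1% by KO H3K27me3 islands alone. Without regions of 3 or more sites, an alternative chosen after seeing the data, the median gap to WT H3K4me3 was 14.2 kb. The cause of these shifts was not tested. No paired analysis was possible because each genotype and mark has 1 library and the numbered nuclease libraries were not used. With a median of 59 reads and 22 control reads per site, single folds are imprecise.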
